A study of Homo sapiens with 47 samples.

Results

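The genes followed here were SYT1, a calcium sensor of regulated exocytosis, and 7 genes of the same machinery: the synaptotagmins SYT7 and SYT11, the syntaxin STX1A, the SNAP family genes SNAP25 and SNAP23, the vesicle SNARE VAMP2 and the syntaxin-binding protein STXBP2. They were 8 of the 57507 genes in the table, matched by symbol, and each symbol was given to 1 row. SYT1 was chosen by its FPKM, which was higher in all HAP1 NUP58 clones than in WT, so its differences that involve WT are given as a description without a test. The other 7 genes were chosen as relatives or partners of SYT1. RNA was sequenced from 47 libraries, 32 of HAP1, a near-haploid line from a chronic myeloid leukemia, and 15 of HCT116, a near-diploid colorectal cancer line. The study disrupted NUP58, a nucleoporin of the central channel of the nuclear pore, and asked how cells respond to hypomorphic alleles of an essential gene.

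In HAP1, 4 libraries each came from wild-type cells (WT), from a control line (EV) that received the Cas9 vector without a guide RNA, and from the mutant clones C1 to C6, which received Cas9 with guide RNAs against exons of NUP58. In HCT116, 4 libraries were labelled as a NUP58 mutant clone and 11 as unedited controls (2 WT, 3 EV1, 4 EV2, and 2 whose title and genotype name different controls). Each mutant line descended from a single cell and is 1 clone, and the 6 HAP1 clones were picked as the smallest viable colonies. HCT116 cells were selected with puromycin after transfection, and no selection is described for HCT116 WT cells. NUP58 itself had a mean FPKM of 41.3 in WT, 40.3 in EV and 9.8 to 25.5 in the 6 HAP1 clones. In HCT116, the library labelled clone replicate 3 had a NUP58 FPKM of 44.7, against 23.3 to 25.3 in the other 3 clone libraries, and the library labelled EV2 replicate 3 had 23.9. For tested members, differences of the HCT116 clone from its controls are therefore given with and without these 2 libraries. The study describes the 4 HAP1 libraries of a line as independent replicates. For HCT116 its legends name biological replicates for the exon plots and technical replicates for the NUP58 RNA level. Here p-values measure the spread between libraries of a line, not between clones of a genotype. Values are FPKM, which corrects for transcript length and sequencing depth, and the number of fragments behind a value is unknown. Relative depth, read from the smallest values, was between 0.752 and 1.16 for the HAP1 libraries and between 0.761 and 0.936 for those of HCT116.

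Regulated exocytosis joins a secretory vesicle to the plasma membrane when calcium rises. A vesicle SNARE such as VAMP2 zips together with a syntaxin and a SNAP25-type protein of the target membrane, a Sec1/Munc18 protein such as STXBP2 holds and guides the syntaxin, and a synaptotagmin couples the final step to calcium. The machinery is best known in neurons and endocrine cells, while SNAP23 and STXBP2 serve secretion in many other cells, among them cytotoxic lymphocytes, platelets and epithelia.

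The line labels were compared with marker genes. In HAP1 the blood-progenitor regulators GATA2 (mean FPKM 16.8 in WT and 15.8 in EV) and TAL1 (18.1 and 1.26) were present. The blood cell genes PTPRC, GATA1 and SPI1 were listed at 0 in every HAP1 library. CD34 had a mean of 0.0186, CD33 of 0.0839 and KIT of 1.61 in WT. GATA2 was not particular to HAP1, with 11.9 in the HCT116 controls. In HCT116 the epithelial genes EPCAM (mean 184.0 in the controls) and CDH1 (14.5), the keratin KRT18 (486.0) and the intestinal gene CDX2 (6.09) were present, and CDX1, its relative, was listed at 0 in all controls. Of the neuronal markers, TUBB3 was high in both cell lines (85.4 in WT and 105.0 in the HCT116 controls) and INA was present in HAP1 (9.18 in WT), while ELAVL4 was listed at 0 in every library. Of the neuroendocrine markers, SYP had a mean of 2.37 in WT and SCG2 of 11.2 in the HCT116 controls, while CHGA had at most 0.0403 in any line. In WT and in the HCT116 controls, the means were 0.126 and 0.0462 for CHGB, 0.889 and 0.00535 for INSM1, and 0.434 and 0.226 for NCAM1.

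SYT1 lies on chromosome 12 of GRCh38 (78863993 to 79452008, plus strand) and STXBP2 on chromosome 19 (7636772 to 7647873, plus strand). These were the 2 members with the largest differences between HAP1 lines. For each, the longest stretch free of GENCODE 44 exons within 250 bases before its RefSeq start (GRCh38.p14) is shown. It runs from base 250 to base 55 before the start for SYT1, and from 74 to 6 for STXBP2. Both stretches lie inside the gene bodies given above, downstream of the GENCODE gene starts. Capitals mark CCAAT (both strands) and GGGCGG (both strands), which do not overlap here. The stretch of SYT1 is chr12:78864524-78864719, plus strand, and that of STXBP2 is chr19:7637036-7637104, plus strand.
SYT1: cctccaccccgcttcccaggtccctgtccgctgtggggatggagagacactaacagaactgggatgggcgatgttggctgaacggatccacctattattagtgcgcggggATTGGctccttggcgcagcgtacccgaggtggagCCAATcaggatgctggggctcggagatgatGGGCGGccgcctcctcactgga
STXBP2: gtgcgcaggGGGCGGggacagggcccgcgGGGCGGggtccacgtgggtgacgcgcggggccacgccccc
The SYT1 stretch (196 bases) held 2 CCAAT matches, 1 on each strand, and 1 GGGCGG match. Over the same positions, CCAAT was present in 26.7% and GGGCGG in 34.2% of 35116 RefSeq promoters. The STXBP2 stretch (69 bases) held 2 GGGCGG matches and no CCAAT match, where 25.6% and 12.8% of promoters held them. Of its bases, 85.5% were G or C, against a median of 60.9% at the same positions of all promoters, and 62.2% of the SYT1 stretch, against 57.1%.

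**Figure D1:**
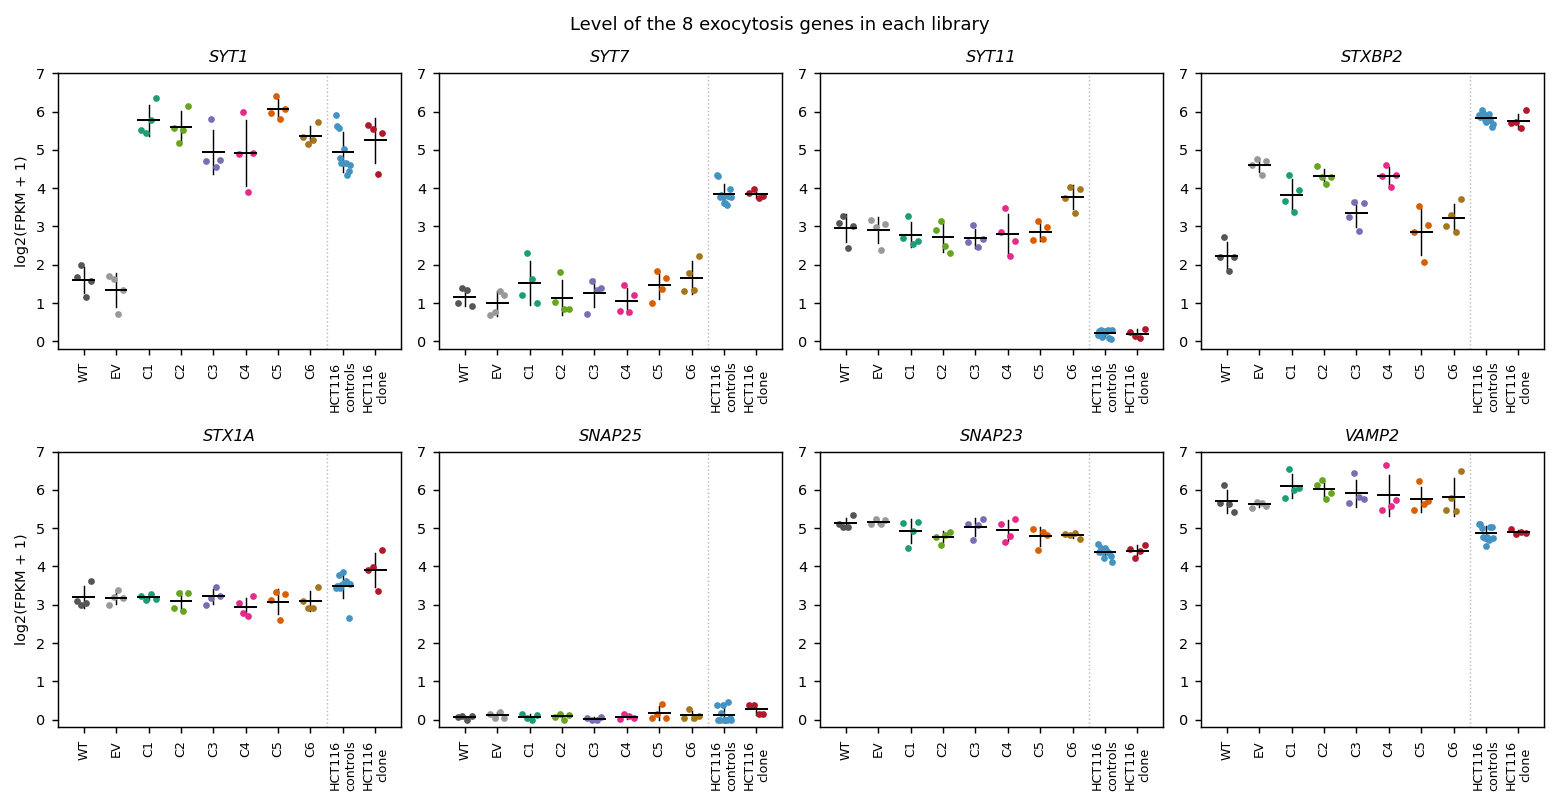
Level of the 8 genes in each library as log2(FPKM + 1), by line; points are libraries, horizontal bars the mean and vertical bars the SD, and the dotted line parts HAP1 from HCT116. SYT1 was high in C1 to C6 and in HCT116, STXBP2 was lowest in WT and highest in EV among the HAP1 lines, with C5 overlapping WT, and SNAP25 stayed close to 0 everywhere.

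Of the calcium sensors, SYT1 binds calcium and triggers fast vesicle fusion. Its FPKM in replicates 1 to 4 was 2.23, 2.98, 1.24 and 1.98 in WT and 2.24, 2.10, 0.637 and 1.52 in EV. In C1 it was 44.9, 42.2, 53.7 and 80.4, and in C2 46.7, 35.3, 44.9 and 70.1. The 8 unedited libraries thus lay below 3 FPKM, and none of them reached the lowest clone library. The values were 25, 55.0, 22.5 and 25.8 in C3 and 28.9, 62.0, 13.8 and 29.2 in C4. They were 61.4, 83.8, 55.2 and 66.4 in C5 and 39.5, 34.8, 37.4 and 52.1 in C6. C3 and C4 had the lowest clone means (32.1 and 33.5) and each held 1 library, replicate 2, far above its other 3, while C5 had the highest mean (66.7).

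On the log2(FPKM + 1) scale the SYT1 difference from WT was largest in C5 (4.46), followed by C1 (4.16), C2 (4.00), C6 (3.77), C3 (3.35) and C4 (3.31). These values chose the gene and carry no test. The differences among the 6 clones, tested without WT, were not called for SYT1 (limma F = 3.88, adjusted p = 0.0714). That test called 13.9% of 13186 genes. In the order EV, WT, C3, C4, C6, C2, C1 and C5, the library ranges of neighbouring lines overlapped at every step except from WT to C3. C4, which kept the most NUP58 RNA of the clones (25.5 ± 2.24 FPKM, SD, n = 4), had nearly the SYT1 mean of C3, which had 12.8 ± 1.95. C1 and C2, with the lowest NUP58 means (10.1 and 9.8), had SYT1 means of 55.3 and 49.3. C5 and C6, with NUP58 means of 15.6 and 15.4, had SYT1 means of 66.7 and 41.0. A relation between SYT1 and NUP58 over the clones was not tested. EV and WT overlapped in SYT1 (log2 difference -0.26), also given without a test because the WT values helped choose the gene.

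An antisense RNA inside SYT1 (ENSG00000257191) had a mean FPKM of 0.711 in WT, 0.179 in EV and 0.675 to 2.63 in the clones. The strand of the counted reads was not given in the sources used here, so reads from any bases the 2 genes share cannot be told apart with certainty. The antisense RNA had at most 5.06 FPKM in any HAP1 library, and SYT1 had 13.8 to 83.8 over the clone libraries. Within 1 Mb of the SYT1 gene body the table held 28 other genes, and 4 of them were tested in the mean of the 6 clones against WT, a comparison that called 6.6% of 13180 genes. NAV3, a microtubule-associated gene, was called (log2 difference 1.00, limma adjusted p = 0.0358). The antisense RNA had 0.59, PAWR 0.30 and PPP1R12A -0.02, and none of these was called. In single clones NAV3 was called in C5 (2.01, limma adjusted p = 0.000978) and C6 (1.21, 0.00351), and had 1.29 in C3, 0.77 in C2, 0.61 in C4 and 0.14 in C1, where it was not called.

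**Figure D2:**
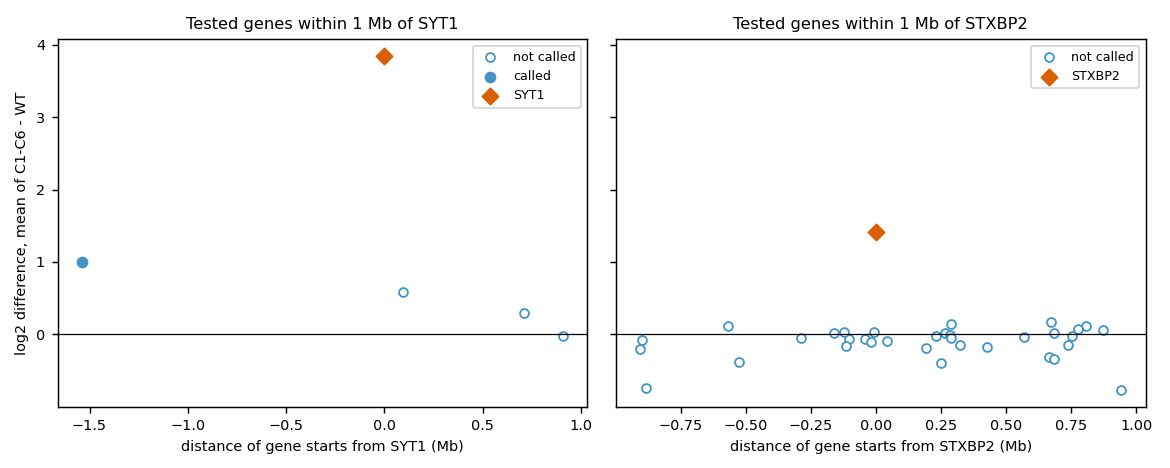
Log2 difference between the mean of C1 to C6 and WT for tested genes within 1 Mb of SYT1 (left) and STXBP2 (right), by distance of gene starts in Mb (the gene body, not the start, of NAV3 is within 1 Mb); filled circles were called, open circles were not, and the diamond is the named gene. NAV3 at 1.00 was the only called neighbour of SYT1, and none of the 34 neighbours of STXBP2 was called.

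SYT7 is a high-affinity calcium sensor tied to slower release and to lysosome exocytosis. It ran from 0.6 to 3.94 FPKM over the 32 HAP1 libraries and overlapped WT in all 7 other lines. The mean of the clones differed from WT by 0.19 on the log2 scale (95% interval -0.25 to 0.62, limma adjusted p = 0.696). SYT7 was thus not called. The upper end of the interval is 1.54-fold on the log2(FPKM + 1) scale, which understates changes at these low levels. In FPKM itself, the clone means ran from 0.892-fold of WT in C4 to 1.8-fold in C6.

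SYT11, which has lost calcium binding and acts in membrane traffic, had 7.58, 8.64, 4.40 and 7.05 FPKM in WT and 8.01, 6.94, 4.27 and 7.38 in EV. In C6 it had 12.3, 15.2, 9.15 and 14.7, and each of these exceeded all 8 unedited libraries. The other 5 clones had means of 5.52 to 6.31 and overlapped WT. C6 rose against WT by 0.81 on the log2 scale (standard error 0.212, limma adjusted p = 0.0356), in a comparison that called 11.7% of 13371 genes, and the call was lost without a filter on low FPKM (limma adjusted p = 0.0791). It was also lost without C6 replicate 1, 2 or 4 or WT replicate 1, 3 or 4, each left out alone (log2 difference 0.64 to 0.86, limma adjusted p from 0.0611 to 0.11). The differences among the 6 clones were called for SYT11 (limma F = 5.96, adjusted p = 0.0136), in a test that called 13.9% of 13186 genes.

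STXBP2, also called Munc18-2, binds syntaxins and is needed for granule release in lymphocytes and platelets. Its FPKM was 3.61, 5.6, 2.58 and 3.59 in WT and 23.5, 26.3, 19.4 and 25 in EV. It was 11.6, 19.4, 9.40 and 14.5 in C1, 22.8, 18.7, 16.4 and 18.6 in C2, and 8.51, 11.4, 6.33 and 11.2 in C3. The unedited lines thus stood at opposite ends, and no WT library reached the values of these 3 clones. STXBP2 was 18.8, 23.2, 15.3 and 19.2 in C4, 6.22, 10.5, 3.18 and 7.18 in C5, and 7.06, 8.87, 6.25 and 12.1 in C6. C5 alone overlapped WT, and C2 and C4 alone overlapped EV. Replicate 3 was the lowest library in all 8 HAP1 lines.

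EV was 5.17-fold above WT in STXBP2 on the fitted scale (log2 difference 2.37, standard error 0.186, limma adjusted p = 0.000945; exact permutation p = 0.0286, the smallest that 4 against 4 allows). Only 5 genes were called between the 2 unedited lines, 0.038% of 13153. The other 4, named after their values were seen, were TAL1, a blood transcription factor (mean 18.1 FPKM in WT and 1.26 in EV), TCEAL9 (5.8 and 0.216), PDGFRA, a growth factor receptor (6.11 and 0.591), and BMP7, a secreted growth factor (1.55 and 11.2). BMP7, like STXBP2, was high in EV and had a median of 16.6 over the 24 clone libraries, whereas TAL1 was low in EV and had a clone median of 18.5, close to WT. TCEAL9 and PDGFRA passed the filter through WT, their EV means being below 1 FPKM.

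Against WT, STXBP2 rose in C1 (log2 difference 1.60, limma adjusted p = 0.0215), C2 (2.08, 0.00107), C4 (2.08, 0.0028) and C6 (0.98, 0.0242). Of all genes tested, 0.479% were called for C1, 0.732% for C2, 0.16% for C4 and 11.7% for C6. Leaving out 1 library gave 19 to 76 called genes in C1 (63 with all), 34 to 93 in C2 (96), 12 to 27 in C4 (21) and 823 to 2008 in C6 (1561). In C3 the difference was 1.1 (adjusted p = 0.239), where 0.0911% of genes were called and every C3 library lay above every WT library. With a replicate block, which the data of C3 and WT allow since same-numbered libraries deviated together, C3 had an adjusted p of 0.0101. That setting called 82 of 13179 genes. In C5 the difference was 0.63 (95% interval -0.04 to 1.30, adjusted p = 0.245), and 7.55% of genes were called. These comparisons share the WT libraries. The calls of C2 and C4 were kept without any 1 library. The call of C1 was lost without C1 replicate 1 or 4 or WT replicate 1, 3 or 4 (limma adjusted p from 0.052 to 0.0971), and that of C6 without C6 replicate 2 or 4 or WT replicate 1, 3 or 4 (0.0544 to 0.0741). Both were also lost without the filter on low FPKM (limma adjusted p = 0.0902 in C1 and 0.0634 in C6).

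The direction of the clone mean in STXBP2 depended on the control line. The mean of the 6 clones was 2.66-fold above WT (log2 difference 1.41, standard error 0.188, limma adjusted p = 1.01e-05) and 1.94-fold below EV (log2 difference -0.96, limma adjusted p = 0.00135), and the latter comparison called 8.47% of genes. Against WT and EV together it was 0.23 (limma adjusted p = 0.294). The 6 clones differed among themselves (limma F = 11.02, adjusted p = 0.000544). In the order WT, C5, C6, C3, C1, C2, C4 and EV, from a mean of 3.84 to 23.6 FPKM, the library ranges of neighbouring lines overlapped at every step. STXBP2 differed over the HAP1 lines in another order than SYT1, with C5 lowest of the clones in STXBP2 and highest in SYT1. For SYT1, however, the differences among the clones were not called. Over the 24 clone libraries the Pearson correlation of the 2 genes on the log2(FPKM + 1) scale was -0.038, a description, since libraries of 1 clone share their source.

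The neighbourhood of STXBP2 was examined after its values were seen. Of 95 genes within 1 Mb, 34 were tested in the mean of the clones against WT and 0 were called by limma, with differences from -0.77 to 0.18 and a median of -0.06, where the median of all genes was -0.02. In EV against WT, 0 of 34 were called by limma, with differences from -0.59 to 0.37. A readthrough gene on the same strand (ENSG00000268400) covers STXBP2, and fragments may be split between them. It had at most 4.48 FPKM in any HAP1 library and a mean of 0.162 in WT, 1.32 in EV and 0.0997 to 1.03 in the clones.

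**Figure D3:**
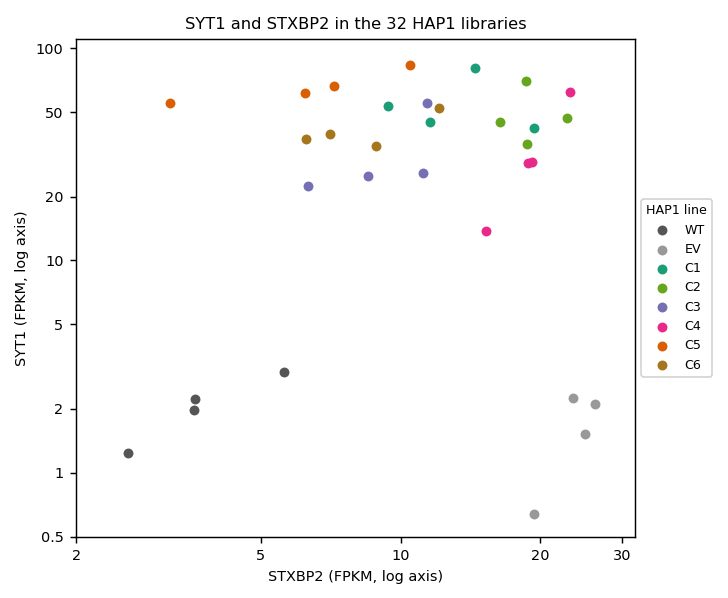
FPKM of SYT1 (vertical, log axis) and STXBP2 (horizontal, log axis) in the 32 HAP1 libraries, 1 point a library, coloured by line. WT was low in both genes, EV was low in SYT1 and high in STXBP2, and the clones, high in SYT1, spread from 3.18 to 23.2 FPKM in STXBP2.

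Among the SNARE proteins, STX1A, a plasma membrane syntaxin, had 7.04 to 11.3 FPKM in WT, 6.91 to 9.49 in EV and 5.08 to 10.1 over the 24 clone libraries, and overlapped WT in every line. The mean of the clones differed from WT by -0.09 (95% interval -0.36 to 0.17, limma adjusted p = 0.769). SNAP25, the neuronal SNARE partner of STX1A and SYT1, did not exceed 0.339 FPKM in HAP1 or 0.389 in HCT116, and was listed at 0 in 5 HAP1 and 6 HCT116 libraries. It failed the filter of a mean of at least 1 FPKM in every comparison and was not tested, so 7 of the 8 members passed the filter in HAP1.

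SNAP23, the widely expressed relative of SNAP25, had 31.6 to 39.3 FPKM in WT and 33.4 to 36.5 in EV, and 20.6 to 36.7 over the clone libraries with a median of 27.9. All libraries of C2, C5 and C6 lay below all WT libraries (exact permutation p = 0.0286 each, the smallest possible), and the other 3 clones overlapped WT. None of the 3 passed across all genes (limma adjusted p = 0.284 in C2, 0.179 in C5 and 0.0899 in C6). At an unadjusted p under 0.05, limma passed 1666 of 13120 genes in C2, 3076 of 13164 in C5 and 3533 of 13371 in C6. The share of all genes that lay wholly apart from WT was not counted. The mean of the clones differed by -0.24 from WT (95% interval -0.47 to -0.02, limma adjusted p = 0.209) and by -0.29 from EV (0.0997). With a replicate block the difference from EV was called (limma adjusted p = 0.0167) and that from WT was not (0.0544). With WT and EV together as the control the difference was -0.27 and was called (limma adjusted p = 0.0248). Of 13180 genes, the block called 2196 against EV and 1659 against WT, and the joint control called 2310. LRRC57, which overlaps SNAP23 on the opposite strand, had 7.04 to 11 FPKM in HAP1.

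VAMP2, the vesicle SNARE, had 41.6 to 68.7 FPKM in WT, 45.4 to 50.3 in EV and 42.5 to 99.2 over the clones. Replicate 2 was highest in 7 of the 8 HAP1 lines. Against WT no clone was called, and the mean of the clones differed by 0.20 (95% interval -0.17 to 0.58, limma adjusted p = 0.589). VAMP2 was the most abundant of the 8 genes per transcript length in WT and EV, followed by SNAP23.

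**Figure D4:**
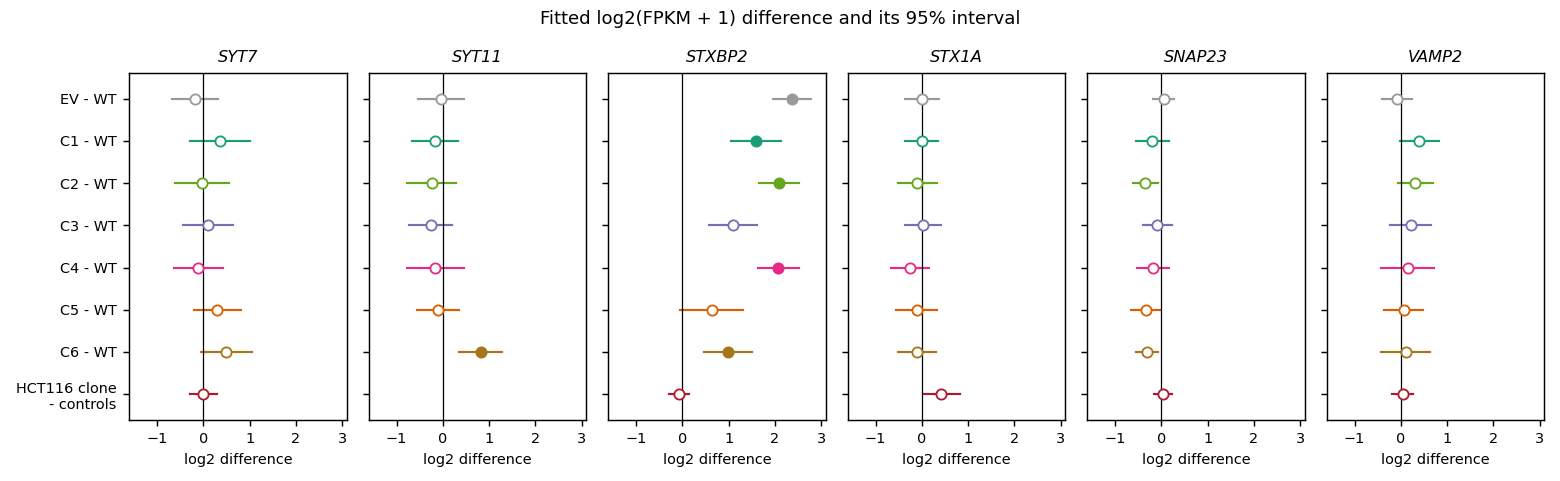
Difference in log2(FPKM + 1) from WT (EV and C1 to C6) and of the HCT116 clone from its controls, with 95% intervals, for the 6 members with a test in HAP1 clones; filled circles passed an adjusted p of 0.05 in limma. STXBP2 was filled in EV, C1, C2, C4 and C6, SYT11 in C6, and no other member was; SYT11 fell under the filter in HCT116.

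Lists of related genes showed how far the difference in SYT1 extended to its pathway. They were read from the mean of the 6 clones against WT, where 6.6% of all genes were called and the median over all genes was -0.02 on the log2 scale. Of 17 synaptotagmins 5 were tested, and of the 4 besides SYT1, 1 rose and 3 were not called, with a median of 0.08 over the list. The one that rose was SYT2, a close relative of SYT1 with the same role in fast release (log2 difference 0.74, limma adjusted p = 0.0241). SYT2 had 1.14 to 2.48 FPKM in WT, 0.922 to 1.52 in EV, and 1.69 to 7.9 over the clones, and its ranges in C1 and C6 lay wholly above WT.

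Of 16 syntaxins 14 were tested and 2 fell: STX4, a plasma membrane syntaxin (log2 difference -0.37, limma adjusted p = 0.0251), and STX3, an apical membrane and granule syntaxin (-0.31, 0.0300). The median of the tested syntaxins was -0.12. Against EV 0 of the 14 were called by limma, with means of 20.6 FPKM for STX3 and 10.5 for STX4 in EV, and of 19.2 and 9.23 over the clones, and 2961 of the 13180 genes had an unadjusted p under 0.05. STX3 had 20.5 to 28.1 FPKM in WT, 11.5 to 15.7 in C6 and 22.9 to 26.0 in C5. Of 12 Sec1/Munc18 and syntaxin-binding genes 10 were tested, and STXBP2 and STXBP4 rose (0.49 for STXBP4, adjusted p = 0.0322), with a median of 0.09.

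Of 16 priming, clamping and disassembly factors 9 were tested and 2 rose, with a median of 0.00. RIMS2, an active-zone scaffold, rose by 1.03 (limma adjusted p = 0.0132), with 0.898 to 1.91 FPKM in WT and 5.4 to 8.94 in C6, the highest clone, while C2 (1.52 to 7.01) and C4 (0.643 to 5.35) overlapped WT. The other was CADPS, a priming factor of dense-core vesicles, which had 0.171 to 0.784 FPKM in WT, 1.77 to 4.56 in C1 and 0.132 to 0.558 in C6. CADPS passed the filter only through the clones where it was high, so its call is not read as support. Of 16 exocyst subunits and secretory Rab GTPases 13 were tested and 1 rose, EXOC8 (0.51, adjusted p = 0.00674), with a median of -0.21. EXOC8 had 3.32 to 5.14 FPKM in WT, 3.0 to 4.42 in EV and 7.81 to 12.2 in C6.

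No gene was called by limma among 4 tested synaptotagmin-like and DOC2 genes of 9, 3 tested SNAP genes of 4, 4 tested VAMP genes of 7, and 5 tested genes of vesicle cargo and membrane of 21, whose medians were 0.09, -0.15, -0.05 and 0.07. At an unadjusted p under 0.05, 2643 of the 13180 genes passed. The cargo genes SCG2 and VGF had mean levels of 0.0619 to 0.377 and of 0.289 to 1.16 FPKM in the HAP1 lines, and 11.2 and 28.7 in the HCT116 controls.

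C6 held the most called genes of these lists, in a comparison that called 11.7% of all genes. Higher in C6 than in WT, besides SYT11 and STXBP2, were SYT2 (log2 difference 1.00), DOC2A (0.85), STXBP4 (0.86), STXBP5 (0.60), RIMS2 (1.82), CADPS2 (1.29), CPLX1 (1.01), EXOC8 (0.96), SYP (1.06) and CPE (0.66), and lower were STX3 (-0.71) and VAMP3 (-0.34), with limma adjusted p-values from 0.000537 to 0.0474. CADPS2, with a mean of 0.701 FPKM in WT and 2.97 in C6, passed the filter only through C6. SYP, a synaptic vesicle membrane protein, had 3.42 to 7.32 FPKM in C6 and 1.0 to 3.6 in WT. In C5, RIMS2 rose (0.97) while SYTL4, a granule-docking effector of RAB27, fell (-1.21, from 16.4 to 24.7 FPKM in WT to 5.01 to 12.1), with adjusted p-values of 0.0379 and 0.0122.

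Of 10 neuronal markers 3 were tested in the mean of the clones against WT and 1 was called, MAP2, a dendrite microtubule protein. It had means of 0.474 FPKM in WT, 0.774 in EV, 0.671 in C3, 0.922 in C4, 2.48 to 2.9 in C1, C2 and C5, and 12 in C6, and passed the filter only through clones. The other 2 were not called: TUBB3 had means of 85.4 in WT and 37.0 to 58.9 in the clones, and INA had 9.18 and 3.37 to 8.41. The summed level of the 10 markers ran from 63.3 to 135.0 in WT, from 83.8 to 141.0 in EV and from 19.5 to 107.0 over the clones. Of 6 neuroendocrine markers 2 were tested and 1 was called, INSM1, a neuroendocrine transcription factor, with means of 0.889 FPKM in WT, 1.1 in EV and 1.73 to 4.2 in the clones, whose WT level also lay under the filter, and SYP was not called. The summed level of those 6 was 2.05 to 7.09 in WT, 3.36 to 5.6 in EV and 3.72 to 13.5 over the clones, with C6 at 11.4 to 13.5. Of 8 haematopoietic markers 3 were tested and GATA2 rose (0.45, limma adjusted p = 0.00383). Of 10 colorectal epithelial markers 4 were tested: the keratins KRT8 (-1.29) and KRT18 (-0.67) fell, and EPCAM and CDX2 were not called. EPCAM had a mean of 0.978 FPKM in WT, 14.6 in C5 and 0.362 to 0.514 in the other clones. CDX2 had 2.79 in WT and 3.05 to 5.18 in the clones. Against EV, limma called 1 of these 4 markers higher and 2 lower. In bulk RNA, a change in the share of cells and a change in each cell cannot be told apart, and the part of these markers in the results above was not tested.

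**Figure D5:**
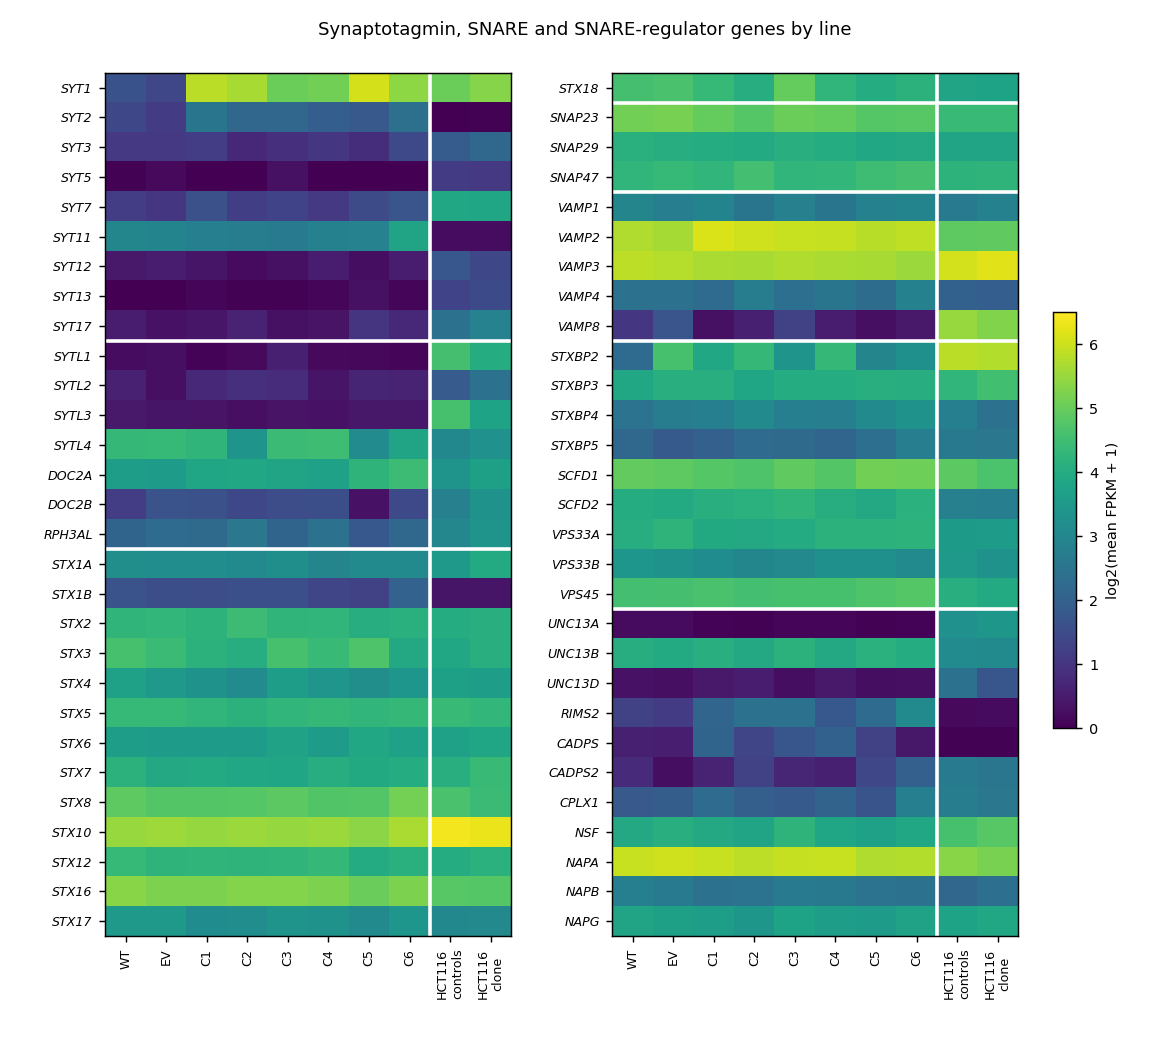
Mean level, as log2(mean FPKM + 1), of genes from 7 lists with a mean of at least 1 FPKM in any line; columns are lines, white lines part the lists and the 2 cell lines. SYT1 changed colour between WT or EV and C1 to C6 more than any other synaptotagmin, and STXBP2 was darker in WT than in EV.

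The genes whose pattern was most like that of SYT1 were not of this machinery. Over the 32 HAP1 libraries, which fall into 8 low unedited and 24 high clone libraries, the largest Pearson correlations with SYT1 among 13180 genes were those of RPL22 (0.899), ARHGAP5 (0.893), TAB2 (0.878), HOXA13 (0.864) and ZNF608 (0.853). Over the 24 clone libraries alone they were TMTC2 (0.863), BTN3A1 (0.813), SEMA3A (0.804), PLEKHA5 (0.775) and FBXO8 (0.761). TMTC2 and PLEKHA5 lie, like SYT1, on chromosome 12, and the 5 genes from the 32 libraries lie on chromosomes 1, 14, 6, 7 and 5. The share of all genes on chromosome 12 was not counted. SEMA3A, a secreted guidance cue, had a mean of 1.13 FPKM in WT and of 1.38 to 10.2 in the clones, highest in C5. Of the other members, VAMP2 (0.403) and SYT7 (0.27) correlated most with SYT1 over the clone libraries, and SNAP23 least (-0.319). Libraries of 1 clone share their source and same-numbered libraries deviated together, so these values are a description.

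In HCT116 the levels were of another kind. Unedited HCT116 cells had 19.3 to 58.7 FPKM of SYT1, with a median of 24.4, against 0.637 to 2.98 in the 8 unedited HAP1 libraries. In the comparison of unedited HAP1 with unedited HCT116, 67.6% of 13538 genes were called and the median over all genes was 0.10. SYT1 was lower in HAP1 by 3.46 on the log2 scale, given without a test because the WT values helped choose the gene. SYT7 was lower by 2.77 (limma adjusted p = 2.78e-14) and STXBP2 by 2.40 (3.44e-15), although for STXBP2 this averages WT and EV. SNAP23 was higher in HAP1 by 0.77 (2.90e-09) and VAMP2 by 0.80 (1.90e-07). SYT11 had a mean of 6.78 FPKM in unedited HAP1 and 0.166 in HCT116 and passed the filter only through HAP1, so no test is given. STX1A was lower by 0.30 (0.0418), a call lost with scaling to TPM (adjusted p = 0.121), without the filter (0.0637), with a replicate block (0.0512) and without the 2 doubtful libraries (0.0609). The clone libraries of HAP1 thus had SYT1 values (13.8 to 83.8) that overlapped those of unedited HCT116 cells.

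SYT1 had 48.8, 45.4, 19.7 and 42.8 FPKM in the libraries labelled as the HCT116 clone. The controls had 58.7 and 26.6 in WT, 48.6, 24.2 and 31.6 in EV1, 46.7, 24.1, 24.4 and 20.9 in EV2, and 19.3 and 23.4 in the 2 libraries with conflicting labels. The clone libraries numbered 2 and 4 lay above all controls of their number, that numbered 1 within them and that numbered 3 below them. The 3 controls numbered 1 were the 3 highest of the 11. The difference was 0.31 on the log2 scale (95% interval -0.28 to 0.91, limma adjusted p = 0.717; exact permutation p = 0.321), and without the 2 doubtful libraries it was 0.58 (exact permutation p = 0.126; limma adjusted p = 0.22).

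STX1A had 14, 14.8, 9.21 and 20.6 FPKM in the libraries labelled clone and 5.28 to 13.4 in the controls. All clone libraries but replicate 3 exceeded every control. The difference was 0.42 on the log2 scale (95% interval 0.03 to 0.82, limma adjusted p = 0.453; exact permutation p = 0.0542), and without the 2 doubtful libraries 0.63 (exact permutation p = 0.00699; limma adjusted p = 0.0599). Limma called 0 of the 12960 genes in this comparison, and 1342 had an unadjusted p under 0.05, STX1A among the members (0.0385). The study's thresholds passed 23 genes (0.177%). Without the 2 doubtful libraries limma called 990 of 12985 genes, and none of the 8 members was among them. Without the library labelled clone replicate 3 alone, 555 genes were called. For the other members the differences were between -0.08 (STXBP2, 46.1 to 64.3 FPKM in the clone and 47 to 65.2 in the controls) and 0.04. Without the 2 doubtful libraries they were 0.008 for SYT7, -0.002 for STXBP2, 0.043 for SNAP23 and 0.021 for VAMP2. SYT11 did not exceed 0.254 FPKM in HCT116 and was not tested there.

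The effect of the clones was compared between the 2 cell lines by subtracting the HCT116 effect (clone against controls) from the HAP1 effect (mean of C1 to C6 against WT), a comparison that called 1.8% of 13629 genes. STXBP2 differed (1.49 on the log2 scale, standard error 0.239, limma adjusted p = 0.000112), a value that rests on WT as the HAP1 control. SYT7, STX1A, SNAP23 and VAMP2 were not called, with differences from -0.51 (STX1A, 95% interval -0.96 to -0.07) to 0.18 (SYT7). Without the 2 doubtful libraries STX1A was called as well (-0.72, limma adjusted p = 0.0417), in a setting that called 1011 of 13634 genes. SYT11 is left out, since it was under the filter in HCT116. For SYT1 the difference was 3.53, given without a test because the HAP1 clones chose the gene.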

How the data were processed

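Total RNA from 47 libraries was sequenced, and per the labels and methods the authors checked reads with FastQC, used STAR for alignment to GRCh38 and RSEM for quantification. The authors deposited 1 table of FPKM values, with no further normalization between libraries. Reads and counts were not used here. The members and gene lists were chosen with earlier results of these data known. Libraries were grouped by GEO's labels, and 0 columns lacked a sample. The 2 HCT116 controls with conflicting labels served only as unedited controls.

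Each comparison tested genes whose FPKM averaged 1 or more over its libraries, as log2(FPKM + 1), which understates changes of low genes, with limma 3.58.1 in R 4.3.3 (lmFit, eBayes with a trend), adjusted by Benjamini-Hochberg over all genes tested, and called at an adjusted p under 0.05. The study's methods used 2-sample tests, and its thresholds (p under 0.01, over 2-fold) were an alternative. Single genes were compared by exact two-sided permutation tests. The named genes were the 8 members, the called genes of each list, the tested genes within 1 Mb of SYT1 and the 5 most correlated with SYT1. Positions came from GENCODE 44 (56417 of 57507 identifiers matched), promoters from RefSeq (6 of 8 members matched). Of the lists, 1 gene is counted but not reported here by name. Scripts were tested on simulated data. Python 3.11.15, numpy 2.4.6, pandas 2.3.3, scipy 1.17.1 and matplotlib 3.10.9 were used.

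Same-numbered HAP1 libraries deviated together: deviations from the group means correlated over 0.1 with those of WT in all 4 pairs in 5 of 7 lines (C1 to C4 and EV), and in 24 of 28 pairs in all (-0.365 to 0.742). In HCT116 this held in 2 of 9 pairs. Alternatives were a pseudocount of 0.1, no filter, TPM or median-ratio scaling, no trend, a replicate block, other controls, 1 fit of all HAP1 libraries, and leaving out each clone and library. Leaving out the 2 doubtful HCT116 libraries together was chosen after the data were seen.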

Additional observations from a re-analysis of the deposited data

Results flagged for a closer look

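Among groups of 4 libraries, 1 library stood apart from the other 3 by Dixon's test in 8 of 80 groups, where chance gives about 1 in 20. SYT1 was 55.0 FPKM in C3 replicate 2, against 22.5 to 25.8 in the other 3, and 46.7 in HCT116 EV2 replicate 1, against 20.9 to 24.4. SYT7 was 2.5 in C2 replicate 2 (others 0.801 to 1.04). VAMP2 was 85.5 in C3 replicate 2 (49.4 to 55.5) and 99.2 in C4 replicate 2 (43.1 to 52.3). STX1A was 11.3 in WT replicate 4 (7.04 to 7.63). In HCT116 EV2 replicate 4, SYT11 was 0.0484 (0.214 to 0.234) and SNAP25 was 0.0313, with the others listed at 0, levels at which few fragments can be expected. In HAP1 these values came from 4 libraries, 3 of them numbered 2.

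The effect of the clones on STXBP2 differed between HAP1 and HCT116 by 1.49 on the log2 scale (limma adjusted p = 0.000112). That value rests on WT as the HAP1 control, since the clone mean differed by 1.41 from WT and by -0.96 from EV. The 6 HAP1 clones differed among themselves in STXBP2 (limma F = 11.02, adjusted p = 0.000544) and SYT11 (F = 5.96, adjusted p = 0.0136), where C6 was highest.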

How the results depend on the processing

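Without the filter on low FPKM, 0 members were called in C1 (1 as reported) and 0 in C6 (2 as reported). The study's thresholds called 1 member in C3, 0 in C6, 0 in the clone mean against EV (1 as reported) and 4 between unedited HAP1 and HCT116 (7 otherwise, SYT1 and SYT11 counted). A fit of all 32 HAP1 libraries called 1 member in C3 (0 as reported). With a replicate block, 1 member was called in C3, 1 in C5 (STXBP2, limma adjusted p = 0.0288) and 2 in the clone mean against EV (SNAP23 added, 0.0167), and STX1A was lost between the cell lines. Same-numbered libraries of C5, C6 and HCT116 did not all deviate together, so there the block is a number only. A pseudocount of 0.1 gave 4.33 for SYT1 in the clone mean (3.84 as reported). Without the 2 doubtful HCT116 libraries, a choice made after the data were seen, 2 members differed between the cell lines in clone effect (1 as reported). Leaving out 1 library, 0 to 1 members were called in C1 and 0 to 2 in C6.

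Differences near 0 changed sign and none of these was called. For EV against WT, STX1A was 0.002 with median-ratio scaling and -0.074 to 0.136 leaving out 1 library, SYT11 -0.22 to 0.123 and VAMP2 -0.183 to 0.054. In the clone mean, SYT11 was 0.01 without C1, 0.024 without C2, 0.029 without C3, 0.009 without C4 and 0.004 with WT and EV as control, and leaving out 1 WT library -0.193 to 0.086 (STX1A -0.153 to 0.051). In HCT116, SYT7 was -0.004 with median-ratio scaling, -0.014 with 9 controls and -0.022 without libraries numbered 3 (STXBP2 0.003), and leaving out 1 clone library SYT7 was -0.044 to 0.038 and SNAP23 -0.01 to 0.098. For the difference between cell lines, SYT11 was 0.059 with a pseudocount of 0.1, 0.012 with TPM and 0.015 with median-ratio scaling. The cause of these changes was not tested.

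Over all genes, the block moved the calls from 63 to 197 in C1, 96 to 161 in C2, 12 to 82 in C3, 21 to 319 in C4, 994 to 2147 in C5, 870 to 1659 in the clone mean against WT, 1116 to 2196 against EV, and from 1561 down to 1312 in C6, and 246 to 404 for the difference between cell lines. The fit of all HAP1 libraries called 437, 536, 49, 135 and 1618 in C1 to C5, and the study's thresholds 117, 159, 52, 90, 304 and 488 in C1 to C6 (1561 as reported in C6), 92 and 112 in the clone means and 23 in EV. WT and EV together as control gave 2310. Calls moved by over 1.5 times without C1 replicate 1, 3 or 4 or WT 1 or 4 in C1 (19 to 26), C2 replicate 3 or WT 1 or 4 in C2 (34 to 38), C3 replicate 1 or 3 or WT 3 in C3 (6 to 7), C4 replicate 1 or 4 or WT 1 or 4 in C4 (12 to 13), C5 replicate 1, 3 or 4 or WT 1 or 4 in C5 (500 to 622), C6 replicate 1 or 2 or WT 1 or 4 in C6 (823 to 1036), and WT 1 or 4 in the clone mean (492 to 510). Without the 2 doubtful libraries HCT116 had 990 calls and the difference between cell lines 1011. FPKM hold no fragment counts, so the depth behind low values such as those of SYT7 and SNAP25 is unknown.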
